A study of Mus musculus with 6 samples.

Results

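Genes of mitosis, of the spindle checkpoint and of condensin were followed in red cell precursors of mouse fetal liver. The set is 48 gene symbols named for their roles in cell division. No measured value entered the rule, but the set was drawn up with earlier results of these data known. A gene was read from the array features (probe sets) that carry its symbol alone in the platform's annotation, and the brightest probe set by its mean over the 6 arrays stood for the gene. This found 47 of the 48 genes, out of 18193 genes with such a probe set. Ccnb1 (cyclin B1) had none and is not analysed here. All 47 passed the filter on dim genes, which left 11959 genes tested, and all 47 read above background on every array.

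The samples were 2 subsets of erythroid cells, S1 and S3, sorted by flow cytometry from livers of Balb/C embryos, with 3 arrays each. The sort used Ter119, an antigen of maturing red cells, CD71, through which cells take up transferrin, and a cocktail against other lineages. S1 is the less mature subset and S3 the more mature one. The embryos carried no named mutation and received no named treatment, and the series' design text gives 3 sorting days for both subsets. For embryo age the labels conflict: the stage field has day 12.5 on S1 samples but 13.5 on S3 samples, whereas the source field has 13.5 throughout, so that subset and embryo age cannot be told apart. Each sample is a population of sorted cells, in which the share of cells in mitosis and the RNA per mitotic cell cannot be told apart either.

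Cells that enter mitosis switch on the kinase Cdk1 with its cyclins, condense their chromosomes with condensin and attach each chromosome to the spindle through a kinetochore built on the centromere. The spindle checkpoint holds the cell until every kinetochore is attached. The anaphase-promoting complex with Cdc20 then destroys cyclin B and securin, and the chromosomes part. Many of these genes are transcribed late in the cell cycle, and their promoters often hold the cell cycle homology region (TTTGAA) and CCAAT boxes. Erythroid precursors of the fetal liver divide while they mature, and stop only near the end of maturation.

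Promoter sequence was a property that the choice of genes did not use. RefSeq promoters (GRCm38.p6, 250 bases before to 50 after a gene's start) were matched by symbol for 39 of the 48 genes. The letters TTTGAA, read on both strands, stood in 26 of these 39 promoters (66.7%), against 18.1% of all 27025 promoters of that length and 11.8% of the 9743 promoters of genes tested. In 22 of the 39 (56.4%) a match began no more than 30 bases before the start or lay after it, against 3.79% of all promoters. CCAAT, on both strands, stood in 29 of the 39 (74.4%), against 37.9% of all promoters, and more than once in 20 of them (51.3%), against 12.2%. The E2F-type letters TTTCGCGC or TTTGGCGC, on both strands, stood in 2 of the 39 (5.13%), against 0.833% of all promoters and 1.66% of those of genes tested. These shares describe letters in a window and show no binding.

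The 120 bases before the start are shown for 6 genes, 5′ to 3′ on the gene's strand, with each TTTGAA or CCAAT match on either strand in capitals. Cdc25b and Nusap1 are shown because they were the members that passed the test between subsets. Cdk1, Cdc20, Top2a and Kntc1 are shown as members of 4 roles with a match to TTTGAA close to the start.
Cdc25b, chr2:131186828-131186947, plus strand: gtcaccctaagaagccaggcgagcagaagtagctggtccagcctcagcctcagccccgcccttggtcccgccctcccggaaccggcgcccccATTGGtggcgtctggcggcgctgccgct
Nusap1, chr2:119618178-119618297, plus strand: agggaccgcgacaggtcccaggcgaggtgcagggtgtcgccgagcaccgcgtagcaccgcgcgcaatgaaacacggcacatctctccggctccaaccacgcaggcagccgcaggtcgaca
Cdk1, chr10:69352913-69353032, minus strand: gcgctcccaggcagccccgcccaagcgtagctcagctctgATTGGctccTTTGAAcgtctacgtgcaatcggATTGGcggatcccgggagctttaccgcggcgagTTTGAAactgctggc
Cdc20, chr4:118437344-118437463, minus strand: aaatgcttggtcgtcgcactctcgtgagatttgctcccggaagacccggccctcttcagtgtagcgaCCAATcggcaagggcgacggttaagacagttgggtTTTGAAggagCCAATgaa
Top2a, chr11:99024190-99024309, minus strand: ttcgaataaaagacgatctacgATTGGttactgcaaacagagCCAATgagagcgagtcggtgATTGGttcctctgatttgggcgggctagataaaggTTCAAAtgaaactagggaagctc
Kntc1, chr5:123749606-123749725, plus strand: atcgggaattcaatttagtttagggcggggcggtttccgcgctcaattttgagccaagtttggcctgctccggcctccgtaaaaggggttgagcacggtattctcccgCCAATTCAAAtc
In Kntc1 the CCAAT shares a base with TTCAAA, which is TTTGAA read on the other strand. The windows of Cdc25b and Nusap1 held no TTTGAA, and that of Nusap1 held neither set of letters.

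Values are deposited log2 signals, whose precision is limited by having 3 arrays a subset. The probe set at the 5′ end of actin minus that at its 3′ end was between -2.59 and -2.08 on 3 arrays, called short (S1 replicates 1 and 2, S3 replicate 2), and between -0.56 and -0.45 on 3 arrays, called long (S1 replicate 3, S3 replicates 1 and 3). The mitosis genes moved strongly with this class. In a fit with subset and class, 36 of 47 were higher on the long arrays and 0 lower (limma, adjusted p under 0.05; at an unadjusted p under 0.05 Spc25 was lower), against 37.5% higher and 2.27% lower of all genes tested. The log2 class difference ran from -0.35 ± 0.14 (SE) in Spc25 to 3.54 ± 0.33 (SE) in Nek2, with 3.25 ± 0.26 in Ckap2 and 2.81 ± 0.20 in Ttk. Where the fit that holds the class as a block changed the call of a gene named below, its value is given too.

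**Figure D1:**
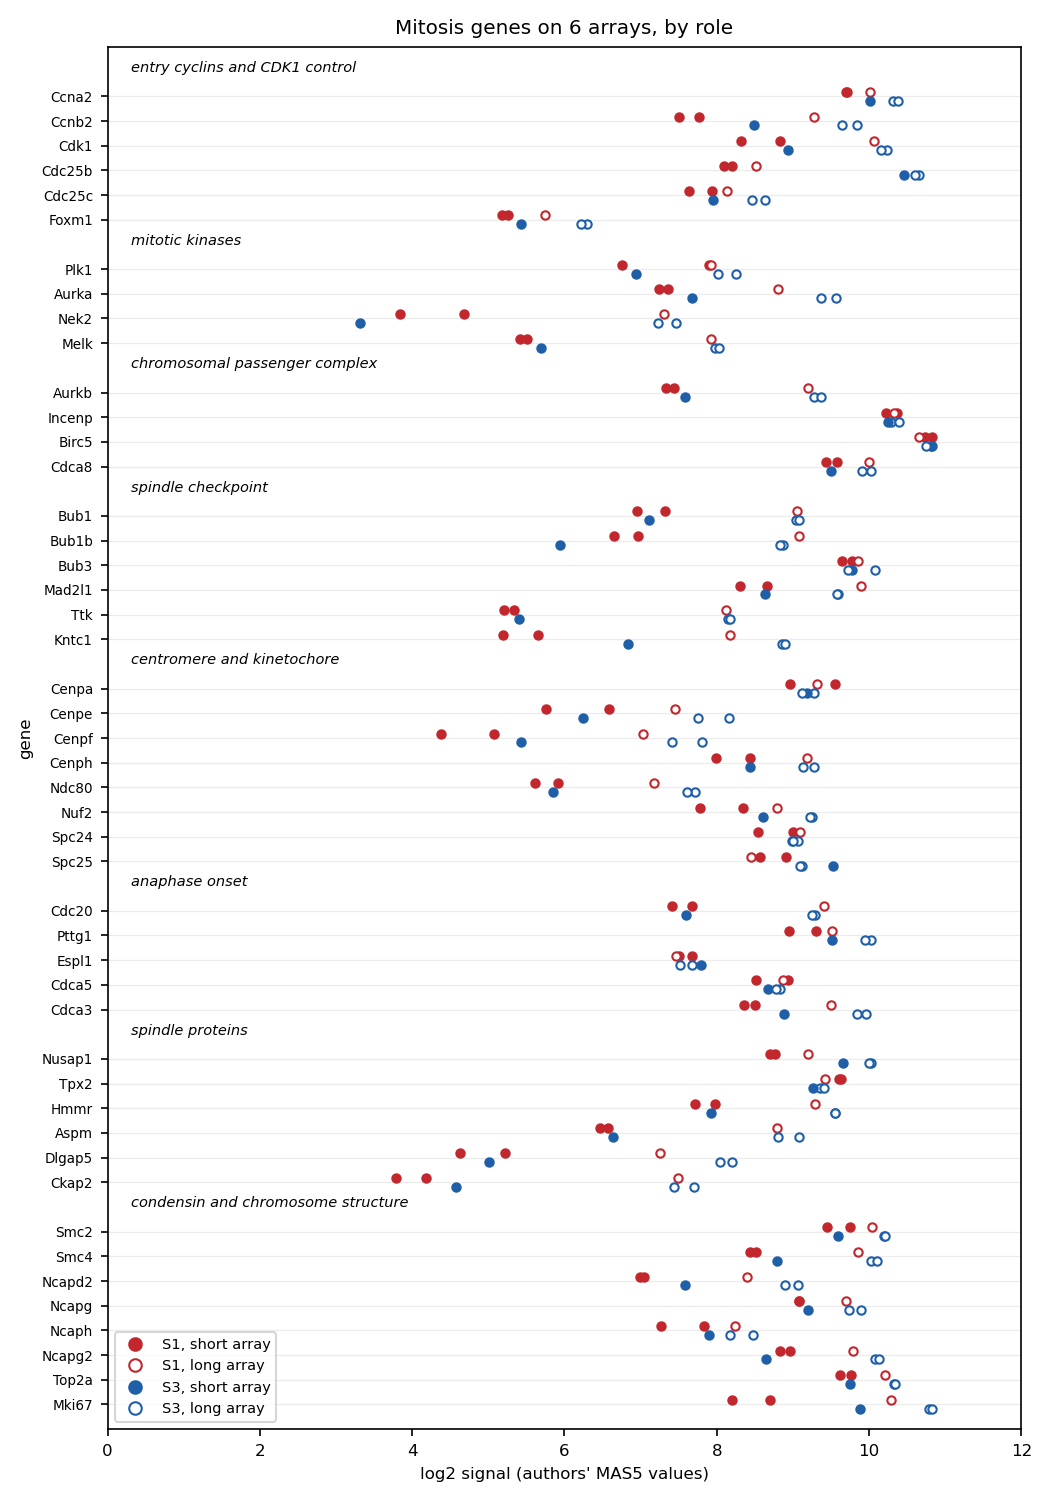
Log2 signal (horizontal axis) of the 47 mitosis genes (vertical axis, grouped by role) on the 3 S1 arrays (red) and the 3 S3 arrays (blue), with short arrays filled and long arrays open; levels of different genes cannot be set against each other. In most genes the open points of both subsets lie together to the right of the filled points, while Cdc25b and Nusap1 separate by subset.

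On every S3 array the median of the mitosis genes lay further above that of all genes than on any S1 array. The change of the typical gene itself depended on the scaling: over all genes the median change was -0.33 on the log2 scale as deposited, -0.10 with arrays centred on their median, -0.07 with quantile normalization and 0.13 when centred on the genes tested. Their median log2 signal was 7.90, 8.10 and 9.09 on S1 replicates 1 to 3 and 9.28, 8.49 and 9.23 on S3 replicates 1 to 3. The median of all genes tested was 5.92, 5.90 and 6.86 on the S1 arrays and 6.07, 5.18 and 6.03 on the S3 arrays. The distance between both medians was therefore 1.98, 2.20 and 2.24 in S1 and 3.21, 3.31 and 3.20 in S3. The 3 S3 distances lay above all S1 distances and hardly differed between short and long arrays.

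**Figure D2:**
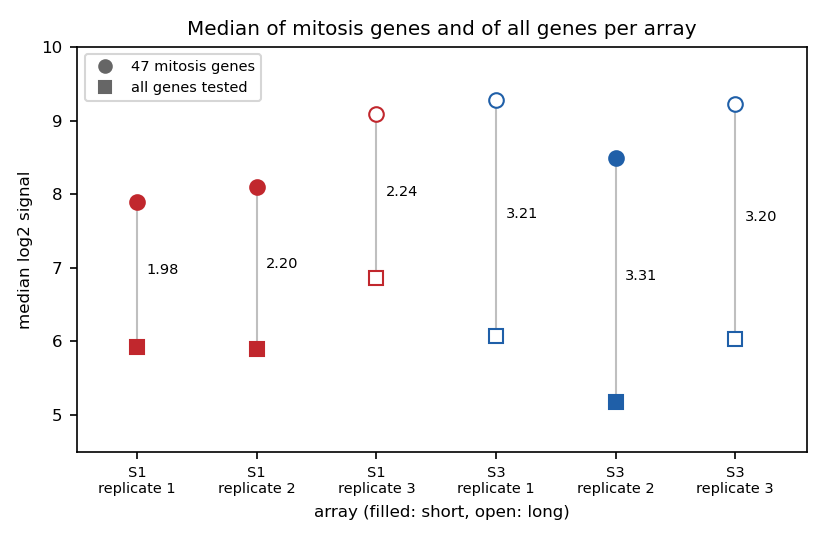
Median log2 signal (vertical axis) of the 47 mitosis genes (circles) and of all 11959 genes tested (squares) on each array (horizontal axis; short arrays filled, long arrays open), with the distance between both printed beside the line. The distance was 1.98 to 2.24 on the S1 arrays and 3.20 to 3.31 on the S3 arrays.

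Between subsets, 2 of the 47 genes rose in S3 (4.26%), none fell and 45 were not called (limma over all genes, Benjamini-Hochberg adjusted p under 0.05). Of all genes tested, 2.53% were called higher and 12.8% lower, so that the share of risers was near that of all genes. Leaving out 1 array gave 1 riser without S1 replicate 1, S1 replicate 2, S3 replicate 1 or S3 replicate 3, 4 without S3 replicate 2 and 5 without S1 replicate 3. At an unadjusted p under 0.05, 6 of the 47 were higher and 0 lower, against 638 higher and 2896 lower of all 11959 genes tested. The sign was positive for 44 of the 47 (93.6%), against 32.1% of all genes, and for fewer members with the class block, as given below. The related lists given below were mostly positive too. They had 63.9% positive for all other genes of mitosis, with 82.1% for those of kinetochore and checkpoint, 75% for cytokinesis and 62.2% for DNA replication. The members' median log2 change was 0.61, against -0.33 for all genes tested. All 47 signs were positive when arrays were centred on their median or quantile normalized, so that Tpx2, Cenpa and Cdca5 have no settled sign. Centring called 6 members higher and 0 lower, where 4% and 8.13% of all genes were called, and the members' median stood 0.94 above that of all genes with and without it. For 4 genes every S3 array lay above every S1 array, and for 1 gene below, where 5.81% and 29.5% of all genes did so.

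With the array class as a block, 12 of the 47 genes were higher (25.5%), 1 was lower (2.13%) and 34 were not called. This fit called 5.81% of all genes higher and 41.2% lower. Its members' median was 0.17, against -0.54 for all genes. In this fit 36 members had a positive and 11 a negative sign, against 2706 and 9253 of all genes. The other genes of mitosis had 47 positive and 61 negative signs. With the block and with each array centred on its median, 17 were higher and 0 lower, where 8.56% and 16.8% of all genes were called.

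**Figure D3:**
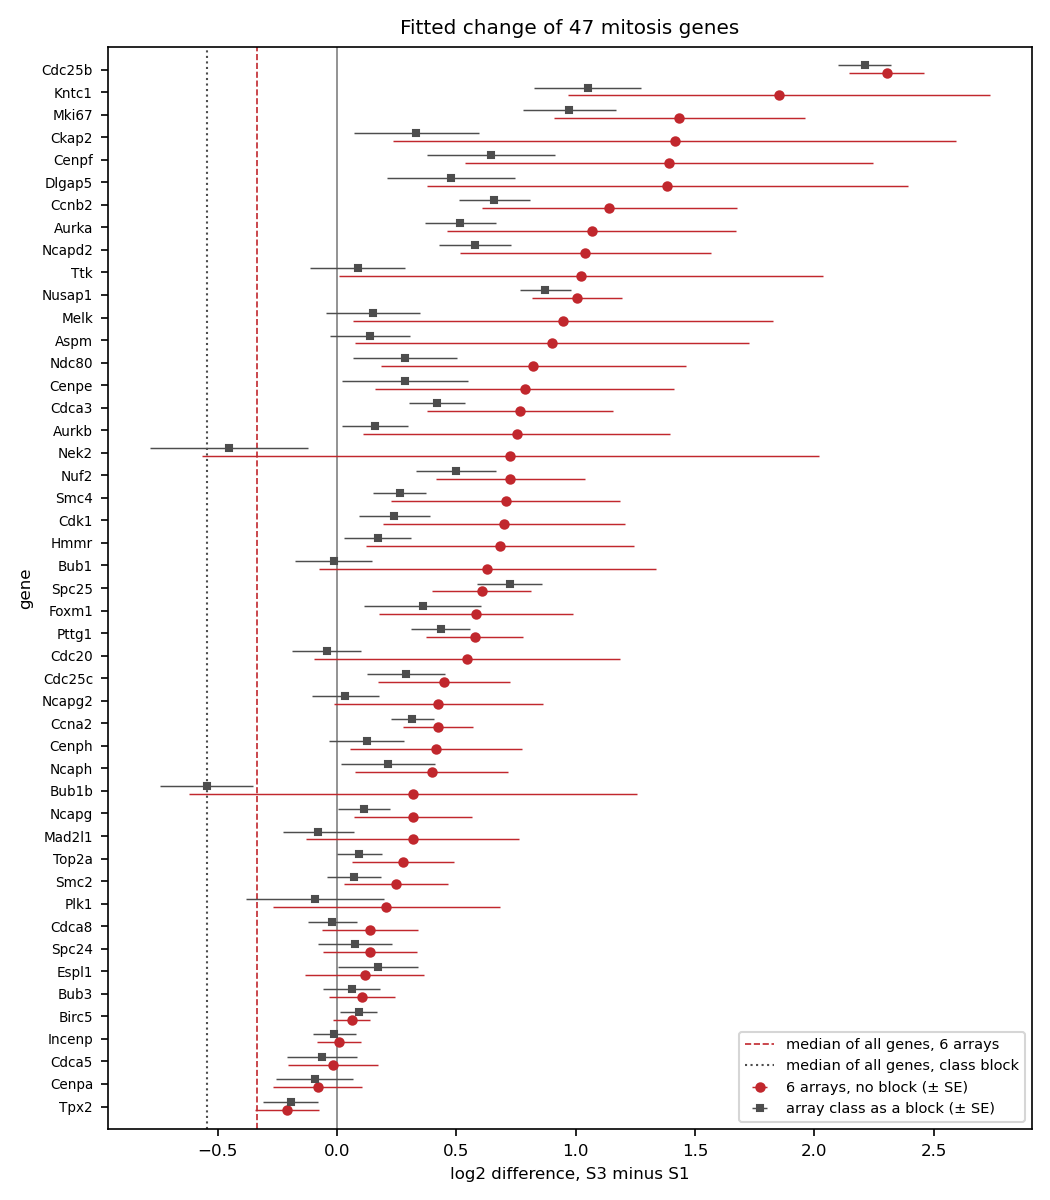
Fitted log2 difference, S3 minus S1 (horizontal axis), of each of the 47 genes (vertical axis) over the 6 arrays without a block (red circles) and with the array class as a block (grey squares), with standard errors; dashed and dotted lines mark the medians of all genes, -0.33 and -0.54. Cdc25b stands apart at 2.30 and 2.21, and the standard errors of genes such as Ckap2 and Ttk shrink with the block.

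The control of mitotic entry held the largest change of the set. Cdc25b, a phosphatase that removes inhibitory phosphates from cyclin-dependent kinases, read 8.19, 8.10 and 8.51 on the S1 arrays and 10.66, 10.46 and 10.60 on the S3 arrays. The subsets were far apart on both kinds of array. Cdc25b rose by a log2 difference of 2.30 ± 0.16 (SE), or 4.93-fold (limma adjusted p = 0.00252), and passed in all 16 other planned fits.

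Its relatives were not called alike. Cdc25c, which acts at the same step, read 7.63, 7.94 and 8.14 in S1 and 8.64, 7.945 and 8.46 in S3, with subsets that overlap. Its change had the sign of that of Cdc25b and was not called (0.45 ± 0.28, adjusted p = 0.345), but it was called with quantile normalization (0.78, adjusted p = 0.0416) and with the class block and centring (0.74, adjusted p = 0.0488). Cdc25a, best known for its role at the entry to S phase and listed among other regulators of mitosis, fell from 9.07, 8.25 and 8.49 in S1 to 7.49, 7.21 and 7.59 in S3. Its log2 change was -1.18 ± 0.29 (SE, limma adjusted p = 0.0341), and -1.20 with the class block. The differences between these family members were not tested.

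**Figure D4:**
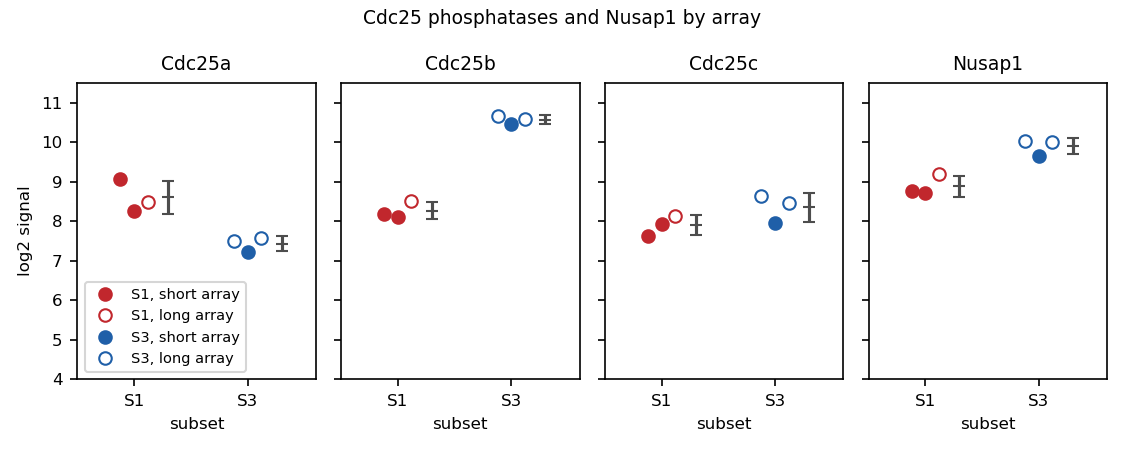
Log2 signal (vertical axis) of Cdc25a, Cdc25b, Cdc25c and Nusap1 in S1 (red) and S3 (blue), 1 point per array with short arrays filled and long arrays open, and the mean ± SD of 3 arrays beside them. Cdc25a lies lower and Cdc25b and Nusap1 lie higher on every S3 array, while Cdc25c overlaps between subsets.

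The kinase Cdk1 itself read 8.32, 8.83 and 10.07 in S1 and 10.23, 8.94 and 10.16 in S3 (0.70 ± 0.51, adjusted p = 0.432). Its high values were the long arrays of both subsets, and with the class block the change was 0.24 ± 0.15 (adjusted p = 0.212). Among its cyclins, Ccna2 read 9.71, 9.70 and 10.01 in S1 and 10.31, 10.01 and 10.38 in S3, and Ccnb2 7.505, 7.76 and 9.27 in S1 and 9.84, 8.49 and 9.64 in S3. In both genes the lowest S3 value, that of the short array, fell under the highest S1 value, that of the long array. Neither was called over the 6 arrays (0.42 ± 0.15, adjusted p = 0.0970, and 1.14 ± 0.53, adjusted p = 0.209). With the class block both rose, Ccna2 by 0.32 ± 0.09 (adjusted p = 0.0153) and Ccnb2 by 0.66 ± 0.15 (adjusted p = 0.00460). Foxm1, a transcription factor that drives many genes of this phase, read 5.25, 5.18 and 5.75 in S1 and 6.29, 5.43 and 6.21 in S3 and was called in neither fit (0.58 ± 0.41, adjusted p = 0.413, and 0.36 ± 0.25, adjusted p = 0.265).

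Of the 4 other mitotic kinases none was called over the 6 arrays, with log2 changes of 0.21 to 1.07. Plk1, a kinase of centrosomes and kinetochores, read 7.90, 6.75 and 7.93 in S1 and 8.25, 6.94 and 8.02 in S3, and its sign turned with the class block (0.21 ± 0.47 and -0.09 ± 0.29). Aurka, which acts at spindle poles, was called with the class block (0.52 ± 0.15, adjusted p = 0.0161) and not without it (1.07 ± 0.61, adjusted p = 0.304). Nek2, a centrosomal kinase, showed the widest spread of the set, with 4.68, 3.84 and 7.31 in S1 and 7.22, 3.32 and 7.47 in S3. Its S3 short array lay under every S1 array, while its long arrays of both subsets lay close together.

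The chromosomal passenger complex, which corrects faulty attachments and follows the spindle into anaphase, had a median log2 change of 0.10 over the 6 arrays, the smallest of the 8 roles in that fit, and 0.04 with the class block, where the spindle checkpoint (0.02) and the mitotic kinases (0.03) had smaller ones. None of its 4 genes was called in either fit. Birc5 (survivin) read 10.73, 10.82 and 10.65 in S1 and 10.82, 10.83 and 10.74 in S3, a change of 0.06 ± 0.08 (adjusted p = 0.675). Incenp, its scaffold, changed by 0.01 ± 0.09 (adjusted p = 0.971). Of 4 dimmer probe sets of Incenp 3 had a positive change and 1, close to background, a negative one, and none was called. With the mean of each gene's probe sets Incenp changed by 0.59, Cdca8 by 0.40, Aurkb by 0.78 and Birc5 by 0.06, none of them called. The small change of Incenp and the small median of this role are therefore those of the brightest probe sets. The roles were not compared with the mean of probe sets. The kinase of the complex, Aurkb, read 7.33, 7.44 and 9.20 in S1 and 9.28, 7.58 and 9.37 in S3, and again its high values were the long arrays (0.75 ± 0.64 over the 6 arrays and 0.16 ± 0.14 with the block, adjusted p = 0.385).

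The spindle checkpoint held a gene on each side once the class was in the fit. None of its 6 genes was called over the 6 arrays. Kntc1 (Rod), which recruits dynein and Mad proteins to kinetochores, read 5.19, 5.65 and 8.18 in S1 and 8.86, 6.83 and 8.89 in S3. Within each class its S3 arrays lay above its S1 arrays, and it rose with the block by 1.05 ± 0.22 (adjusted p = 0.00315; 1.85 ± 0.88, adjusted p = 0.218 without it). Bub1b (BubR1), which inhibits Cdc20, read 6.96, 6.65 and 9.08 in S1 and 8.87, 5.94 and 8.83 in S3. It was the member that fell with the block (-0.55 ± 0.20, adjusted p = 0.0407), while its change was 0.32 ± 0.94 without the block and -0.10 with the block and centred arrays, where its call was lost (adjusted p = 0.866). The kinase Bub1 read 6.95, 7.32 and 9.05 in S1 and 9.04, 7.11 and 9.08 in S3 (0.63 ± 0.71 and, with the block, -0.01 ± 0.16). Mad2l1, the Mad2 protein that inhibits Cdc20, read 8.30, 8.66 and 9.89 in S1 and 9.60, 8.63 and 9.58 in S3 (0.32 ± 0.45 and, with the block, -0.08 ± 0.15). In both genes the S1 long array stood level with or above the S3 long arrays.

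Of 8 genes of centromere and kinetochore none was called over the 6 arrays, and 2 of the Ndc80 complex, which binds microtubules, rose with the block. Spc25 read 8.56, 8.90 and 8.45 in S1 and 9.12, 9.53 and 9.09 in S3, with every S3 array above every S1 array. Its change was 0.61 ± 0.21 (adjusted p = 0.0947) over the 6 arrays and 0.72 ± 0.14 (adjusted p = 0.00156) with the block. Nuf2 changed by 0.73 ± 0.31 (adjusted p = 0.173) and with the block by 0.50 ± 0.17 (adjusted p = 0.0307). Their partners Ndc80 and Spc24 were called in neither fit: Ndc80 read 5.61, 5.91 and 7.17 in S1 and 7.71, 5.84 and 7.61 in S3 (0.28 ± 0.22 with the block), and Spc24 changed by 0.08 ± 0.15 with the block. Cenpa, the histone that marks the centromere, read 8.96, 9.55 and 9.32 in S1 and 9.28, 9.19 and 9.12 in S3 (-0.08 ± 0.19, adjusted p = 0.838). Its S3 arrays lay within the range of its S1 arrays, and 2 dimmer probe sets changed by 0.45 and 0.59 without being called.

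At anaphase onset, Pttg1 (securin), the inhibitor of separase, read 8.95, 9.30 and 9.51 in S1 and 10.03, 9.51 and 9.95 in S3. Every S3 array lay above every S1 array, by little between S1 replicate 3 and S3 replicate 2. It was not called over the 6 arrays (0.58 ± 0.20, adjusted p = 0.103) and rose with the block (0.43 ± 0.12, adjusted p = 0.0140). Espl1 (separase) changed by 0.12 ± 0.25 (adjusted p = 0.822). The activator Cdc20 read 7.67, 7.42 and 9.41 in S1 and 9.29, 7.60 and 9.25 in S3, with its highest value on an S1 array (0.55 ± 0.64 and, with the block, -0.04 ± 0.14). Cdca3, a trigger of mitotic entry, rose with the block (0.42 ± 0.12, adjusted p = 0.0134), and Cdca5 (sororin), which protects cohesin, changed by -0.02 ± 0.19.

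Among 6 spindle proteins, Nusap1, which bundles microtubules near chromosomes, read 8.77, 8.70 and 9.19 in S1 and 10.03, 9.66 and 9.99 in S3. Every S3 array lay above every S1 array, and Nusap1 rose by 1.01 ± 0.19 (SE), or 2.01-fold (limma adjusted p = 0.0138). Of 16 other planned fits 6 did not call it, among them those without S1 replicate 1, S1 replicate 2, S3 replicate 1 or S3 replicate 3 (highest adjusted p = 0.119, with the mean of its probe sets). A dimmer probe set of Nusap1 changed by 2.04 ± 0.88 (adjusted p = 0.205 over probe sets). Tpx2, which activates Aurora A, was the gene whose S3 arrays all lay under its S1 arrays (9.36, 9.26 and 9.41 against 9.63, 9.60 and 9.42), with a change of -0.21 ± 0.13 (adjusted p = 0.368). Of its 2 dimmer tested probe sets, neither of them called, 1 had the other sign (0.78 ± 0.52) and 1 the same (-0.60 ± 0.52). Hmmr, Aspm, Dlgap5 and Ckap2 were called in neither fit (0.14 to 0.48 with the block).

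All 8 genes of condensin and chromosome structure had positive changes in both fits, and none was called over the 6 arrays. Mki67 (the Ki-67 antigen, which coats mitotic chromosomes) read 8.20, 8.70 and 10.29 in S1 and 10.79, 9.88 and 10.83 in S3. Only the S3 short array fell under the S1 long array, and Mki67 rose with the block by 0.97 ± 0.20 (adjusted p = 0.00224; 1.43 ± 0.53, adjusted p = 0.115 without it). Top2a, the topoisomerase that untangles sister chromatids, read 9.62, 9.77 and 10.20 in S1 and 10.33, 9.75 and 10.34 in S3 (0.28 ± 0.21 and, with the block, 0.09 ± 0.09). Its 2 dimmer probe sets had opposite signs and were not called (2.02 ± 1.08, adjusted p = 0.317, and, close to background, -2.51 ± 0.70, adjusted p = 0.0643).

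Within condensin, Smc2, an ATPase core subunit of both complexes, read 9.45, 9.75 and 10.04 in S1 and 10.19, 9.59 and 10.21 in S3 (0.07 ± 0.11 with the block). Its partner Smc4 changed by 0.26 ± 0.11 with the block (adjusted p = 0.0748). Of the subunits of condensin I, Ncapd2 rose with the block (0.58 ± 0.15, adjusted p = 0.00969), while Ncapg (0.11 ± 0.11) and Ncaph (0.21 ± 0.20) were not called. Ncapg2 of condensin II read 8.96, 8.83 and 9.78 in S1 and 10.08, 8.65 and 10.13 in S3 (0.03 ± 0.14 with the block). Of the other condensin II subunits, which are no members, Ncaph2 rose with the block (0.48 ± 0.17, adjusted p = 0.0404), and Ncapd3 was not called (0.19 ± 0.15).

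Compared within a class, and so without a block, 33 of the 47 genes (70.2%) were higher in S3 on both the long and the short arrays and 5 (10.6%) lower on both, against 15.1% and 66.9% of all genes tested. The long class sets 2 S3 arrays against 1 S1 array and the short class 1 against 2. The median change of the 47 genes was 0.16 on the long arrays and 0.16 on the short arrays, and that of all genes -0.59 and -0.49. Cdc25b changed by 2.12 and 2.31, Nusap1 by 0.82 and 0.93, and Spc25 by 0.65 and 0.79, so that these 3 hardly depended on the class. Mki67 (0.52 and 1.43) and Kntc1 (0.70 and 1.40) changed more on the short arrays. Bub1b was lower on both (-0.23 and -0.86).

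**Figure D5:**
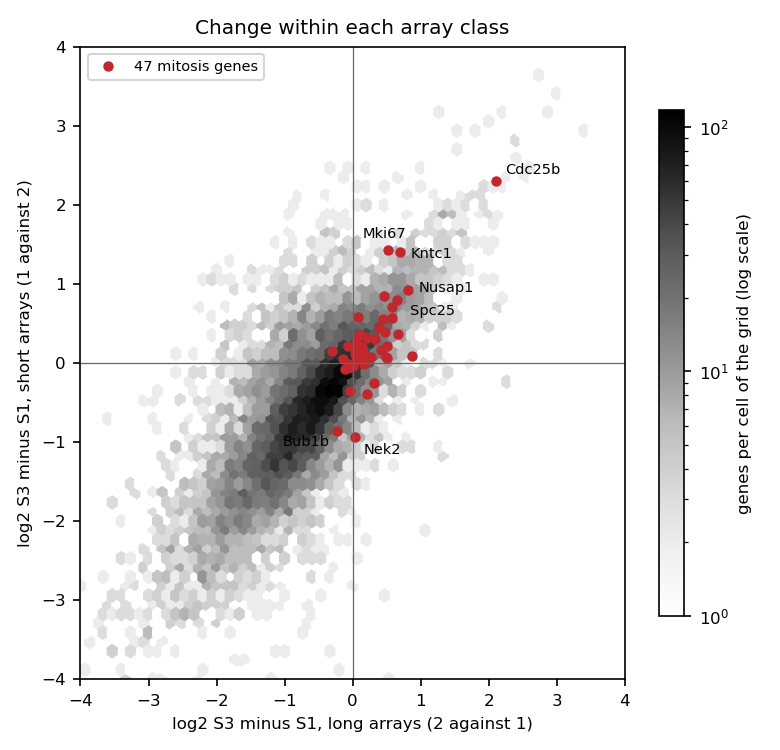
Log2 difference, S3 minus S1, on the long arrays (horizontal axis) and on the short arrays (vertical axis) for the 47 mitosis genes (red) over all genes tested (grey, number of genes per grid cell on a log scale; 293 genes lie outside the axis limit of 4). Most genes lie at the lower left, below 0 on both axes, while 33 of the 47 mitosis genes lie at the upper right.

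Other genes of mitosis were taken from lists by role, 108 of them tested. None rose over the 6 arrays (4 were higher and 12 lower at an unadjusted p under 0.05) and 5 fell (4.63%), against 2.53% and 12.8% of all genes. Their median log2 change was 0.17. Without any one array except S3 replicate 2 only 1 of the 108 was called lower, and without S3 replicate 2, 3 were. The fallers beside Cdc25a were Ppp2r2a, a regulatory subunit of the phosphatase PP2A that acts at mitotic exit (-1.75 ± 0.24, adjusted p = 0.00494), the phosphatase Cdc14b (-1.80 ± 0.46, adjusted p = 0.0375), Cdk7, which activates other cyclin-dependent kinases (-1.05 ± 0.28, adjusted p = 0.0444, not named by the rule but given to complete the count), and Cdc23, a subunit of the anaphase-promoting complex (-0.80 ± 0.22, adjusted p = 0.0472). With the class block 11 of the 108 were higher (10.2%) and 26 lower (24.1%), against 5.81% and 41.2% of all genes. Among 18 genes of the anaphase-promoting complex 1 fell, and none of 14 cohesin genes, 28 other kinetochore and checkpoint genes, 25 other spindle and centrosome genes or 3 other condensin genes was called over the 6 arrays (with 0, 1, 1 and 0 higher and 2, 1, 2 and 1 lower at an unadjusted p under 0.05 in limma).

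The 2 genes with the least p-values of each list without a call over the 6 arrays were all called with the class block. They were picked for small p-values in the same data, and the block called 5.81% of all genes higher and 41.2% lower. For cohesin these were Esco1 (-0.43 ± 0.18, adjusted p = 0.153, and with the block -0.46 ± 0.14, adjusted p = 0.0210) and Pds5b (-0.63 ± 0.26, adjusted p = 0.157, and -0.76 ± 0.16, adjusted p = 0.00278), which were lower. Among kinetochore genes Cenpo was lower (-1.09 ± 0.30, adjusted p = 0.0524, and with the block -1.12 ± 0.22, adjusted p = 0.00224) and Cenpk higher (1.16 ± 0.36, adjusted p = 0.0736, and 0.92 ± 0.21, adjusted p = 0.00482). Of the spindle genes Mapre1, which tracks growing microtubule ends (-0.48 ± 0.13, adjusted p = 0.0504, and with the block -0.42 ± 0.10, adjusted p = 0.00697), and Clasp1, which stabilises microtubules (-0.97 ± 0.37, adjusted p = 0.126, and -1.17 ± 0.21, adjusted p = 0.00105), were lower. In the condensin list Mcph1 was lower (-0.78 ± 0.31, adjusted p = 0.142, and with the block -0.84 ± 0.22, adjusted p = 0.00915), and Ncaph2, given above with the block, was not called without it (0.41 ± 0.22, adjusted p = 0.286).

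Beside the 47 genes, 45 genes of DNA replication had a median log2 change of 0.12, with none called higher or lower over the 6 arrays (2 higher and 3 lower at an unadjusted p under 0.05) and 3 higher (6.67%) and 7 lower (15.6%) with the class block. The least p-values were those of Pold1, of DNA polymerase delta (-0.80 ± 0.26, adjusted p = 0.0816), and Rpa2, of the complex that binds single-stranded DNA (-0.36 ± 0.14, adjusted p = 0.133). Both were lower with the block (-0.59 ± 0.12, adjusted p = 0.00261, and -0.41 ± 0.11, adjusted p = 0.0118). Of 16 genes of cytokinesis 1 fell and 0 rose over the 6 arrays, with a median of 0.41 (1 higher and 3 lower at an unadjusted p under 0.05). With the class block 1 was higher (6.25%) and 3 were lower (18.8%). The faller over the 6 arrays was Cep55 (limma adjusted p = 0.0215), which read 6.35, 6.31 and 6.60 in S1 and 2.48, -2.85 and 1.61 in S3. On S3 replicate 2 it was below background, so that no size of its change is given.

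The erythroid label stood against its markers: 9 of 9 measured erythroid markers, Gata1 and Klf1 among them, were above background on all 6 arrays, and their summed linear signal was 4935 to 6528 in S1 and 10457 to 12770 in S3. Of the erythroid markers Alas2, Slc4a1, Hba-x and Epb42 were called higher and 5 were not called. Summed signals of megakaryocyte markers were 80.1 to 176.6 in S1 and 355.0 to 379.2 in S3 (6 of 6 above background on all arrays). Vwf was called higher and 5 were not called. Among those not called, Pf4, Gp9 and Ppbp changed by 1.84, 1.74 and 1.82, with every S3 array above every S1 array. Gp1bb changed by 0.32 and Itga2b by -0.31. With the class block 4 of the 6 were higher and 0 lower, against 5.81% and 41.2% of all genes. The sums of hepatoblast markers (10 of 10 above background on at least 1 array) were 313.5 to 397.8 and 286.3 to 1094. Those of macrophage markers were 28.7 to 120.1 and 38.2 to 92.6, and those of granulocyte and mast cell markers 20.5 to 100.3 and 11.6 to 142.5. Of the granulocyte and mast cell markers Prtn3 was called lower. Endothelial sums were 10.4 to 19.9 and lymphoid sums 1.86 to 6.24 over both subsets. Adgre1, C1qc, Mpeg1, Ctsg, Elane, Tek, Cd3e, Cd79b, Il7r and Rag1 were above background on no array. The part of such cells in the values of the mitosis genes was not tested.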

How the data were processed

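RNA of sorted cells was amplified with the Ovation system, labelled with biotin and hybridised to Affymetrix mouse arrays, per the labels' protocols and the series' design text. The authors deposited log2 signals. They come from MAS5, with probe sets for Gapdh, beta-actin and 18S rRNA as the normalization reference, as the series' design text says. No source states the log base, which the size of the values puts at 2; the MAS5 version is not given in the sources used here.

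Of 45101 probe sets 34945 had a single symbol. Tested genes had a mean above the 40th percentile of non-control probe sets. An array's background was the 95th percentile of its 27 bacterial control probe sets. The subset difference came from limma 3.58.1 (R 4.3.3, intensity trend, two-sided, 4 residual and 3.41 prior degrees of freedom), and Benjamini-Hochberg adjustment ran over all 11959 genes. Short and long arrays were split at an actin 5′ minus 3′ difference of -1.5. In simulated arrays (S3 minus S1, 11959 genes) noise was drawn for each gene alone, so that no array class was shared between genes. There, 100 genes were given a log2 change of 1 and 100 a change of 2, with rises and falls in equal number. Of these, 11% and 25% were called, and of 38 calls 2 were false. The real fit called far more genes (302 higher and 1533 lower), so a call needed a smaller p-value in the simulation. Its rates are therefore not those of the test on the data.

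The members, the lists and the array classes were chosen with earlier results of these data known. By rule, arrays were given one by one for called members and for members fixed by role. Further members with array values (Ccna2, Ccnb2, Cdc25c, Nek2, Kntc1, Bub1b, Spc25, Tpx2) were chosen after their values were seen. Array values of Cdc25a and Cep55, called genes of other lists, were given outside that rule too. Of each other list up to 3 called genes, or the 2 smallest p, were named.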

Additional observations from a re-analysis of the deposited data

How the results depend on the processing

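Cdc25b was called in all 16 other planned fits. The alternatives were planned, save for centring on the median of the genes tested and the long or short arrays alone, which were chosen after seeing the data. Members higher in S3 numbered 6 with arrays centred on their median, 12 with quantile normalization, 1 without an intensity trend, 1 with the mean over probe sets, 4 with the replicate block, 12 with the class block, 17 with that block and centring, 13 when centred on the genes tested, 13 on the long arrays alone, 5 on the short arrays alone, and 1 to 5 when 1 array was left out (5 without S1 replicate 3). Of all genes, 4%, 5.83%, 1.92%, 1.9%, 3.45%, 5.81%, 8.56%, 5.93%, 5.16%, 2.82% and 0.995% to 3.09% were higher in these fits, and 8.13%, 9.4%, 10.5%, 7.29%, 15.9%, 41.2%, 16.8%, 5.79%, 34.7%, 21.7% and 4.52% to 10.6% lower. The long or short arrays alone hold 1 array of a subset, which is assumed to vary like the others, so their calls support nothing by themselves. The class block called 1 member lower. In the same order the other mitotic genes higher numbered 3, 12, 0, 1, 1, 11, 18, 15, 3, 1 and 0 to 2, and those lower numbered 2, 1, 3, 2, 7, 26, 4, 1, 19, 8 and 1 to 3, and 3 without a filter. The members' median change was 0.39 to 1.10 with 1 array left out, and stayed above that of all genes in all fits run.

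Signs that turned, all in members not called over the 6 arrays, were these. Centring gave Cenpa 0.15, Cdca5 0.22 and Tpx2 0.0233, and quantile normalization 0.17, 0.26 and 0.0424. The mean over probe sets gave Cenpa 0.32, Cdca5 0.21, Cdca3 -0.31 and Top2a -0.0686. The class block gave Plk1 -0.0921, Nek2 -0.45, Incenp -0.0119, Cdca8 -0.0202, Bub1 -0.0144, Bub1b -0.55, Mad2l1 -0.0775 and Cdc20 -0.0432, and with centring Nek2 -0.0036, Bub1b -0.10, Cenpa 0.36, Cdca5 0.39 and Tpx2 0.25. Centring on the genes tested gave Cenpa 0.39, Cdca5 0.45 and Tpx2 0.26. The long arrays gave Cdca8 -0.0311, Bub1b -0.23, Mad2l1 -0.31, Spc24 -0.0608 and Cdc20 -0.14, and the short arrays Plk1 -0.39, Nek2 -0.94, Incenp -0.0361, Cdca8 -0.0094, Bub1 -0.0302, Bub1b -0.86, Smc2 -0.0173 and Ncapg2 -0.25. With 1 array left out the ranges were Plk1 -0.18 to 0.61, Nek2 -0.0055 to 2.07, Incenp -0.035 to 0.0388, Bub1b -0.18 to 1.29, Bub3 -0.0045 to 0.18, Mad2l1 -0.0091 to 0.79, Cenpa -0.24 to 0.0584, Spc24 -0.0337 to 0.25 and Cdca5 -0.14 to 0.0641. The cause was not tested.

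No source ties a replicate number to a sorting day, so the numbers were not taken to pair the arrays. Same-numbered arrays' deviations from their subset means correlated at -0.19, 0.36 and 0.43 (Pearson's r across genes). These correlations cannot decide whether the numbers pair the arrays, because their signs followed the array class. Between S1 and S3 arrays, all were positive within a class and negative across classes. The arrays numbered 1 differed in class, and the other same-numbered arrays shared it. S1 replicate 1 and S3 replicate 1 each correlated best with another number. With the replicate block 4 members were higher, Ccna2 (adjusted p = 0.0474) and Spc25 (adjusted p = 0.0407) beside Cdc25b and Nusap1 (limma).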
